A study of Mus musculus with 4 samples.

Results

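Pmel, Mlana, Dct, Tyrp1 and Tyr are 5 transcripts, of 32285 genes measured, that encode proteins of the pigment organelle of melanocytes and of pigmented melanoma. They were chosen by gene symbol and read in live CD45+ cells sorted from mouse tumours of B16-F10, a transplantable melanoma line. The control group received dilution buffer into the tumour and IgG intravenously; the CD40 group had tumours injected with antibody to CD40, which activates antigen-presenting cells; the PD1 group was given antibody to PD1, a T cell checkpoint receptor, intravenously; and the combination group received both antibodies. All were treated on days 8 and 11, tumours were taken on day 14, and the cells of 6 mice were pooled for 1 library per group (droplet single-cell RNA sequencing of 5′ ends), so no difference between treatments has a replicate check. The strain and age of the mice were not given in the sources used here. The 4 libraries held 8132 to 10158 barcodes and 117735875 to 164755549 unique molecular identifiers (UMIs), and each pair shared 94 to 144 barcode sequences. Filtering kept 34655 cells. Of these, 31 were called melanoma cells (at least 20 UMIs of the 5 transcripts summed and at most 1 UMI of Ptprc, the gene of CD45), and 28402 fell into 1 of 12 leukocyte gates set by marker UMIs. Another 18 cells had at least 20 pigment UMIs with more Ptprc, and 6204 cells passed no gate or several. Intervals below are 95% exact intervals and cover counting error only.

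As background, melanocytes make melanin in melanosomes. Tyr encodes tyrosinase, the rate-limiting enzyme, which oxidises tyrosine; Dct encodes dopachrome tautomerase and Tyrp1 a related protein of the same enzyme family; Pmel forms the amyloid fibrils on which melanin is laid down; Mlana is a small melanosome membrane protein and a well-known melanoma antigen. The transcription factor MITF activates the family through the M-box, an E-box motif in their promoters. Leukocytes are not known for making these transcripts, while macrophages of pigmented tissue are known for taking up pigment and cell debris.

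On the GRCm38 build (GENCODE vM21), Pmel lies at chr10:128704195-128720238 on the plus strand, Mlana at chr19:29697824-29708634 on the plus strand, Dct at chr14:118012790-118052244 on the minus strand, Tyrp1 at chr4:80834123-80851719 on the plus strand and Tyr at chr7:87424771-87493512 on the minus strand. These are whole-gene spans with exons, introns and UTRs. The first 837 bases of Pmel overlap the opposite-strand gene Cdk2, a cell cycle kinase, its last 105 bases overlap Dgka, a lipid kinase of T cells on the opposite strand, and an antisense gene of 1891 bases lies within Dct. How counting treated strand was not given in the sources used here.

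The shared M-box is shown because it is a sequence feature that the choice by symbol did not use. RefSeq windows of GRCm38.p6, from 250 bases before to 50 after a start, were held for Tyr, Tyrp1 and Dct, and all 3 contained TCATGTG on 1 strand or its reverse complement CACATGA. The same letters were found in 5 of the 24 other melanocyte genes with a window (Mc1r, Trpm1, Slc24a5, Hps1 and Tspan10) and in 1239 of all 32851 windows of the same length (3.77%). The match is a description of these letters and not a measured site. Capitals mark the motif, and the bases shown end at or before the RefSeq start.
Tyr: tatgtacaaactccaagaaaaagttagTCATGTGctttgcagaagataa
Tyrp1: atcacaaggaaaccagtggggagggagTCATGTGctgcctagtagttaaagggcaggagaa
Dct: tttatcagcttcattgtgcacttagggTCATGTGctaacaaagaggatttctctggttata
The Tyr stretch is chr7:87493513-87493561 on the minus strand, with the first motif base 22 bases before the start. The Tyrp1 stretch is chr4:80834139-80834199 on the plus strand with the motif 47 bases before the RefSeq start, which lies inside the GENCODE span of the gene. The Dct stretch is chr14:118052364-118052424 on the minus strand, 151 bases before the start, and a second Dct match was on the other strand, 232 bases before it.

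The 31 melanoma cells were 0.0895% of the cells and were selected for their pigment UMIs. Their large part of the pigment RNA is therefore partly set by that rule. They numbered 8 in the control library (0.103% of kept cells, interval 0.0447 to 0.204), 9 in the CD40 library (0.116%, 0.0531 to 0.22), 11 in the PD1 library (0.114%, 0.0567 to 0.203) and 3 in the combination library (0.0316%, 0.00653 to 0.0924). The interval of the combination library overlapped the other 3. The cells were sorted for CD45, so these shares are of a sort that should remove tumour cells. Kept cells held 7261 pigment UMIs in the control library, 12018 in CD40, 10453 in PD1 and 2584 in the combination, and melanoma cells held 77.0%, 59.8%, 65% and 45% of them in that order. Gated leukocytes held 15.5%, 10.1%, 12.2% and 37.1%.

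The melanoma cells varied widely among themselves. Their summed pigment UMIs ranged from 20 to 2432 with a median of 457, and their total UMIs from 809 to 114223 with a median of 36100. Ptprc was at 0 in all 31. Dct was present in all 31 cells (3 to 677 UMIs, median 166), Tyrp1 in all 31 (1 to 563, median 60) and Mlana in all 31 (1 to 354, median 52). Pmel was present in 30 (median 92) and Tyr in 21 (median 19), so the enzyme that starts the pathway was the one most often at 0. The 10 cells without Tyr were shallow, with 809 to 11433 total UMIs, and every deeper cell held it. Of the 21 cells with at least 100 pigment UMIs, 2 were without Tyr. Its absence is therefore not read as a lack of the transcript. Among the 21 cells with at least 100 pigment UMIs, Mlana made up 1.95% to 25.1% of them (median 12.4%), Dct 11.0% to 50.8% and Pmel 12.2% to 56.5%. One of the 31 also held 14 UMIs of mononuclear phagocyte markers and 33 of the complement C1q genes. At the threshold, the lowest cells inside had 20, 20 and 35 summed UMIs and the highest outside with as little Ptprc had 19, 18 and 17.

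The 18 pigment-rich cells with Ptprc were different in their markers. They held 20 to 1186 pigment UMIs (median 83) in 10596 to 124197 total UMIs, and 14 of the 18 passed a macrophage or monocyte gate. In the combination library all 5 had 20 to 43 pigment UMIs, while in the CD40 library 3 of 5 had 830 to 1186. A predicted doublet score had already been applied to them; whether they are pairs of cells was not tested. They were kept out of the leukocyte classes below.

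Pigment UMIs were present in all 5 gates that had at least 100 cells in every library, at levels that differed between them. The summed level is given as CPM, the UMIs of a gene in the gated cells scaled to a common total of all their UMIs, with the control, CD40, PD1 and combination libraries in that order. Macrophage-gated cells (at least 5 UMIs of C1qa, C1qb and C1qc, the complement genes of tissue macrophages) held 18.4, 14.6, 18.6 and 15.9 CPM, or 0.468, 0.545, 0.408 and 0.509 UMIs per cell. Monocyte-gated cells (the same phagocyte markers with less C1q) held 9.55, 5.03, 9.06 and 4.34 CPM, or 0.114, 0.0782, 0.105 and 0.0696 UMIs per cell. CD8 T-gated cells held 2.82, 2.72, 2.97 and 2.30 CPM, or 0.0438, 0.0435, 0.0569 and 0.0389 UMIs per cell. Every macrophage value lay above every monocyte value, and those above every CD8 T value, on both scales.

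NK-gated cells lay near the T cells, with 4.81, 1.96, 3.79 and 2.63 CPM from 15, 9, 17 and 16 UMIs. Neutrophil-gated cells had the highest CPM of the 5 gates in 3 of 4 libraries, 21.9, 45.5, 15.3 and 30.7, but from only 9, 66, 5 and 128 UMIs in shallow cells with median totals of 1927 to 4454 UMIs. Per cell they held 0.0479, 0.180, 0.0352 and 0.15 UMIs, below the macrophages in all 4 libraries. Leaving out cells with at least 5 pigment UMIs took the neutrophil level of the CD40 library from 45.5 to 15.4 CPM. Smaller gates were sparse: regulatory T cells held 11.3, 4.85, 10.2 and 5.13 CPM from 4 to 37 UMIs, and B cells held 1 to 5 UMIs per library. Mature dendritic cells (gated on Ccr7, Fscn1 and Ccl22) held 18, 12, 7 and 15 pigment UMIs in 158, 23, 60 and 18 cells. At least 1 pigment UMI was seen in 7.59%, 21.7%, 5.0% and 38.9% of them. The last, from 7 cells (interval 17.3% to 64.3%), was above the 27.2% of macrophages in that library. Macrophages were thus not the highest of all gates per cell. In CD4 T cells of the CD40 library 1 cell held 14 of the 15 pigment UMIs, and the level without it was 2.18 in place of 32.4 CPM.

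**Figure D1:**
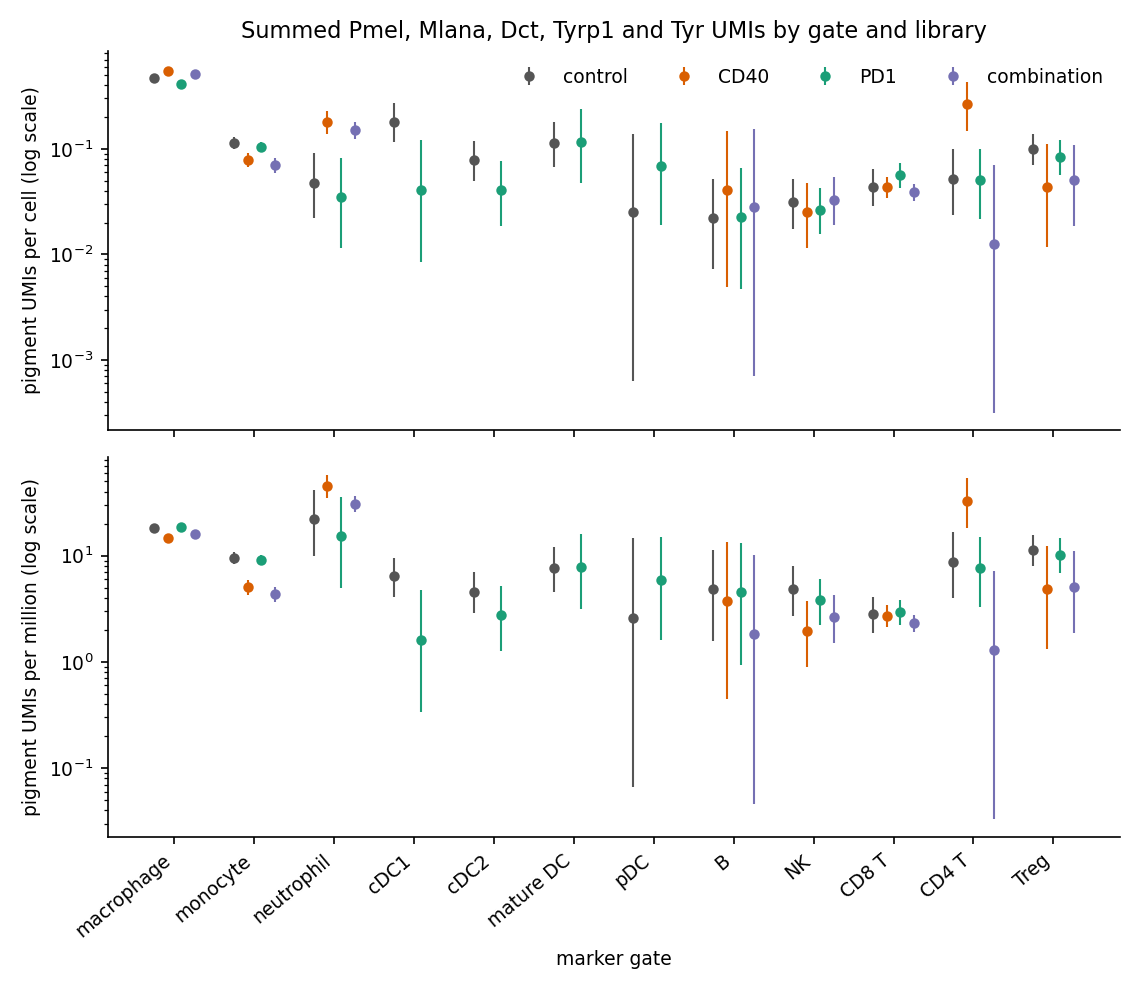
Summed UMIs of the 5 pigment transcripts per cell (top) and in CPM (bottom), both on log axes, for each marker gate; points are libraries (colours) and bars are exact 95% Poisson intervals. Gates with under 30 cells or no pigment UMI in a library are not drawn, which leaves out mature dendritic cells of the CD40 and combination libraries. Macrophages lie near 0.5 UMIs per cell in all 4 libraries, with neutrophils below them. On the CPM scale neutrophils lie above macrophages except in PD1.

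Over the 4 libraries as replicates of the cell-type contrast, the macrophage CPM averaged 16.9 ± 1.91 (SD, n = 4), the monocyte CPM 7.0 ± 2.69 and the CD8 T CPM 2.70 ± 0.288. Macrophages were higher than monocytes in 4 of 4 libraries (1.92 to 3.66 times) and higher than CD8 T cells in 4 of 4 (5.38 to 6.91 times). Each comparison gave p = 0.125 in a two-sided exact sign-flip permutation test, which is the smallest p that 4 libraries allow, and 0.125 after Benjamini-Hochberg adjustment over 16 CPM comparisons. With 4 libraries this test could therefore not pass 0.05.

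Each transcript showed the macrophage excess over monocytes and CD8 T cells on its own. It did not extend to neutrophils. Pooled over libraries, these were above macrophages in CPM for Pmel (11.3 against 3.08), Dct (10.7 against 5.61) and Tyrp1 (6.30 against 3.74). They were about level for Mlana (3.94 against 3.73) and Tyr (0.472 against 0.544, from 3 neutrophil UMIs). Dct held 6.80, 4.95, 5.83 and 5.03 CPM in macrophages against 3.56, 1.63, 2.88 and 1.48 in monocytes and 0.521, 0.980, 0.531 and 0.513 in CD8 T cells. Mlana held 4.48, 3.30, 3.46 and 3.93 CPM in macrophages against 2.02, 0.947, 1.43 and 0.944 in monocytes and 0.521, 0.254, 0.796 and 0.472 in CD8 T cells. For both genes no macrophage library overlapped a monocyte library. Tyrp1 held 3.51, 3.74, 4.26 and 3.32 CPM in macrophages and 1.80, 0.917, 2.64 and 0.863 in monocytes. Pmel held 2.99, 2.19, 4.31 and 3.16 CPM in macrophages and 2.07, 1.39, 1.88 and 0.944 in monocytes. Tyr, tyrosinase itself, was the sparsest, with 23, 27, 30 and 15 UMIs in macrophages and 2, 5, 9 and 4 in monocytes. For these 3 genes too, each macrophage value exceeded each monocyte value in CPM.

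The share of cells with any pigment UMI followed the same order from macrophages to monocytes to CD8 T cells but depended strongly on depth. Unthinned, it was 27.8%, 30.8%, 24.2% and 27.2% of macrophages, whose median totals were 22632, 35225, 18846 and 28953 UMIs, and 3.4%, 3.59%, 4.67% and 3.58% of CD8 T cells, with medians of 11823 to 15732. After every cell was thinned to 2000 UMIs the shares were 3.15%, 2.41%, 3.14% and 2.26% in macrophages, 1.58%, 1.20%, 1.71% and 0.737% in monocytes, and 0.163%, 0.522%, 0.407% and 0.591% in CD8 T cells, a type that should lack these transcripts. Other lymphoid gates should lack them too and were not as low everywhere: in control the thinned share was 2.16% of Treg cells (8 cells), 1.39% of B cells (3 cells) and 1.28% of NK cells (6 cells), near the 1.58% of monocytes, so the monocyte share is not read as above background. At this depth macrophage intervals lay above the CD8 T intervals in all 4 libraries. They overlapped those of Treg cells and of B cells in all 4, as in control (macrophages 2.35% to 4.14%, Treg cells 0.938% to 4.22%). The macrophage share is therefore not read as above every lymphoid gate. Mature dendritic cells of the combination were at 16.7% (3 of 18 cells, interval 3.58% to 41.4%), above the macrophage interval there (1.44% to 3.37%). Thinned to 1000 UMIs the shares were 1.70%, 1.65%, 1.54% and 1.47% in macrophages and 0.487%, 0.232%, 0.508% and 0.348% in CD8 T cells, and the intervals overlapped in control and in PD1. Monocytes then held 0.368%, 0.414%, 0.621% and 0.519%, with control below its CD8 T cells (7 of 1904 and 3 of 616 cells). Each depth was 1 separate random draw, and control CD8 T cells had 1 cell with a pigment UMI at 2000 UMIs. That order in control is therefore not read. Thinning to 2000 UMIs left out 0 macrophages, 4, 2, 7 and 4 monocytes, and 97, 36, 59 and 46 neutrophils. The neutrophil shares were then 4.40%, 3.33%, 3.61% and 4.58%, each above the macrophage share of its library, with overlapping intervals.

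From 10000 total UMIs upward, macrophage pigment UMIs were about proportional to the total UMIs of the cell; below that they were not. In macrophages with 10000 to under 20000, 20000 to under 40000 and at least 40000 total UMIs, pooled over libraries, the pigment count was 0.232, 0.471 and 0.905 UMIs per cell, so the CPM stayed at 15.3, 16.4 and 17.2. The 323 macrophages with 5000 to under 10000 UMIs held 0.192 pigment UMIs per cell, or 23.7 CPM, and the 54 with fewer held 0.204 per cell, or 56.0 CPM (27.9 to 100.1, from 11 pigment UMIs), so the count per cell was about level over the 3 shallowest bins. Monocytes, pooled over libraries, were at 6.23 to 7.45 CPM from the shallowest to the deepest bin. In CD8 T cells the CPM was 11.8 under 5000 UMIs (from 15 pigment UMIs), 2.93, 2.97 and 2.41 in the next 3 bins, and 1.16 at 40000 or more. These are descriptions over cells of the same libraries and carry no test.

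**Figure D2:**
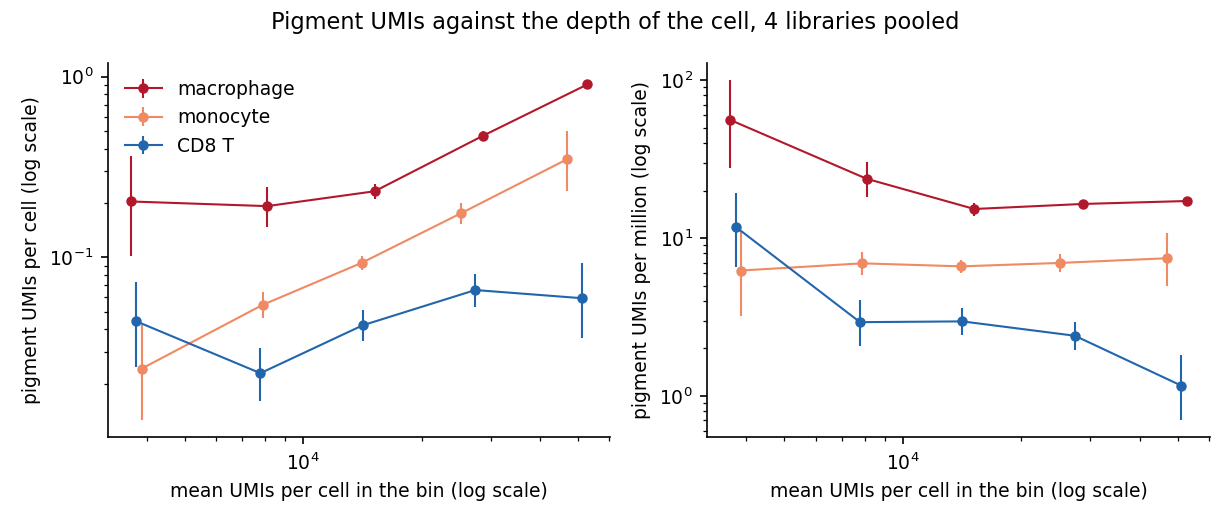
Pigment UMIs per cell (left) and in CPM (right) against the mean total UMIs of cells in 5 depth bins, all axes on log scales, 4 libraries pooled; bars are exact 95% Poisson intervals. Macrophages go from 0.232 to 0.905 UMIs per cell over the 3 deepest bins at 15.3 to 17.2 CPM and sit at 56.0 CPM in the shallowest, while CD8 T cells end at 1.16 CPM.

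Within the mononuclear phagocytes, the pigment level was higher in cells with more C1q. Pooled over libraries it was 6.95 CPM in cells with no C1q UMI, 6.28 with 1 to 4, 9.05 with 5 to 9, 10.9 with 20 to 49, 14.9 with 100 to under 200 and 19.5 (18.7 to 20.4) with 200 or more. In each library the cells with at least 200 C1q UMIs were above those with none, 22.2 against 9.01 CPM in control, 16.8 against 5.38 in CD40, 20.9 against 9.37 in PD1 and 20.5 against 4.61 in the combination. Median depth moved with it, from 12099 to 36184.5 UMIs. Among cells of 10000 to under 20000 UMIs only, the count with no C1q and with 200 or more C1q UMIs was 0.103 and 0.394 UMIs per cell in control and 0.136 and 0.390 in PD1. In the combination it was 0.041 and 0.286, the second from 4 UMIs in 14 cells, and in CD40 0.0819 and 0.0909, the second from 2 UMIs in 22 cells. At this depth the difference was thus seen in control and PD1, and rests on few cells in the other two. The macrophage gate is a range cut from this score: 468 of 15736 phagocytes (2.97%) held 3 to 7 C1q UMIs, near the cut.

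**Figure D3:**
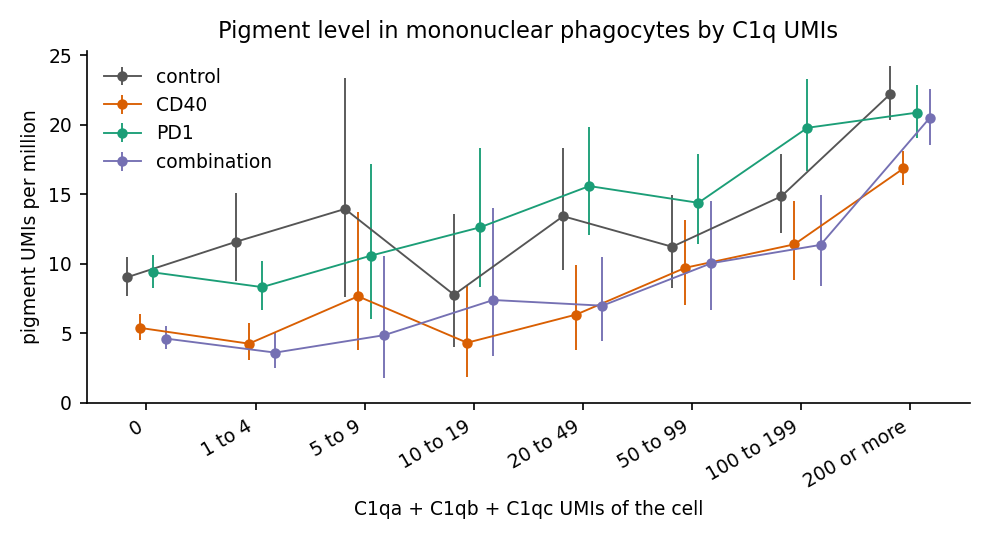
Pigment CPM in mononuclear phagocytes by the cell's summed C1qa, C1qb and C1qc UMIs, for each library (colours) with exact 95% Poisson intervals. All 4 lines end above where they start, and the CD40 and combination libraries start below 6 and the other 2 at about 9.

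Pigment transcripts came together in single macrophages and monocytes, and in a few neutrophils. Mlana was seen in 161 of 738 macrophages with a Dct UMI (21.8%) and in 356 of 5389 without one (6.61%); among cells of 20000 to under 40000 UMIs the shares were 19.2% (62 of 323) and 6.54%. The same direction held in each library, from 15.9% against 4.90% in PD1 to 26.7% against 7.51% in CD40. In monocytes the shares were 8.26% (20 of 242) against 1.35%, and in neutrophils 8.33% (4 of 48) against 1.40%. In CD8 T cells it was 1 of 59 (1.69%) against 0.765%. The variance of the summed pigment UMIs was 2.68 times their mean in macrophages, 2.15 in monocytes, 4.90 in neutrophils and 1.36 in CD8 T cells. At least 3 of the 5 transcripts were found in 123 of 6127 macrophages and in 2 of 6205 CD8 T cells. They were also found in 14 of 9609 monocytes and 6 of 1550 neutrophils. These counts are not matched for depth.

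The mixture of the 5 transcripts differed between melanoma cells and macrophages. As shares of the 5 genes' UMIs, melanoma cells held 34.7% Dct, 31.4% Pmel, 17.8% Tyrp1, 11.2% Mlana and 4.97% Tyr (20731 UMIs), and macrophages 33.6% Dct, 18.4% Pmel, 22.4% Tyrp1, 22.3% Mlana and 3.26% Tyr (2914 UMIs). The Mlana share was 12.4%, 8.74%, 12.9% and 10.7% in melanoma cells of the 4 libraries, in the same order, and 24.4%, 22.5%, 18.7% and 24.7% in macrophages. The Pmel share was 30.7%, 35.6%, 27.9% and 29.1% in melanoma cells and 16.3%, 15.0%, 23.2% and 19.9% in macrophages. Mlana was higher and Pmel lower in macrophages in 4 of 4 libraries, without overlap between the groups.

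Tyr was also lower in 4 of 4, Tyrp1 higher in 3 of 4 and Dct higher in 2 of 4. The exact permutation p was 0.125 for Mlana, Pmel and Tyr (adjusted 0.268 over 15 shares), 0.25 for Tyrp1 and 0.625 for Dct, so none passed the threshold. Relative to the melanoma CPM, the macrophage CPM was 0.216% for Mlana, 0.136% for Tyrp1, 0.105% for Dct, 0.071% for Tyr and 0.0636% for Pmel. The longest coding transcripts of these genes are 906, 2720, 2202, 6042 and 2130 bases in that order. Mlana, the shortest, had the highest ratio, but Pmel, the next shortest, had the lowest. The ratios of these 5 genes were thus not in the order of transcript length. Monocytes had the same direction for Mlana (18.8%) and Pmel (22.5%). The melanoma mixture rests on 3 to 11 cells per library, and the per-cell range of Mlana above covers the macrophage share.

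In CD8 T cells Pmel made up 34.1% of 270 pigment UMIs, against 18.4% in macrophages, and was higher than in macrophages in 4 of 4 libraries (exact permutation p = 0.125, adjusted 0.268). Dgka, which overlaps the end of Pmel, was at 87.8 CPM in CD8 T cells and 7.50 in macrophages, and Cdk2, which overlaps its start, at 21.2 and 12.8 CPM. Their part in the Pmel count was not tested. The antisense gene within Dct held 0 UMIs in CD8 T cells and 1 in macrophages.

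**Figure D4:**
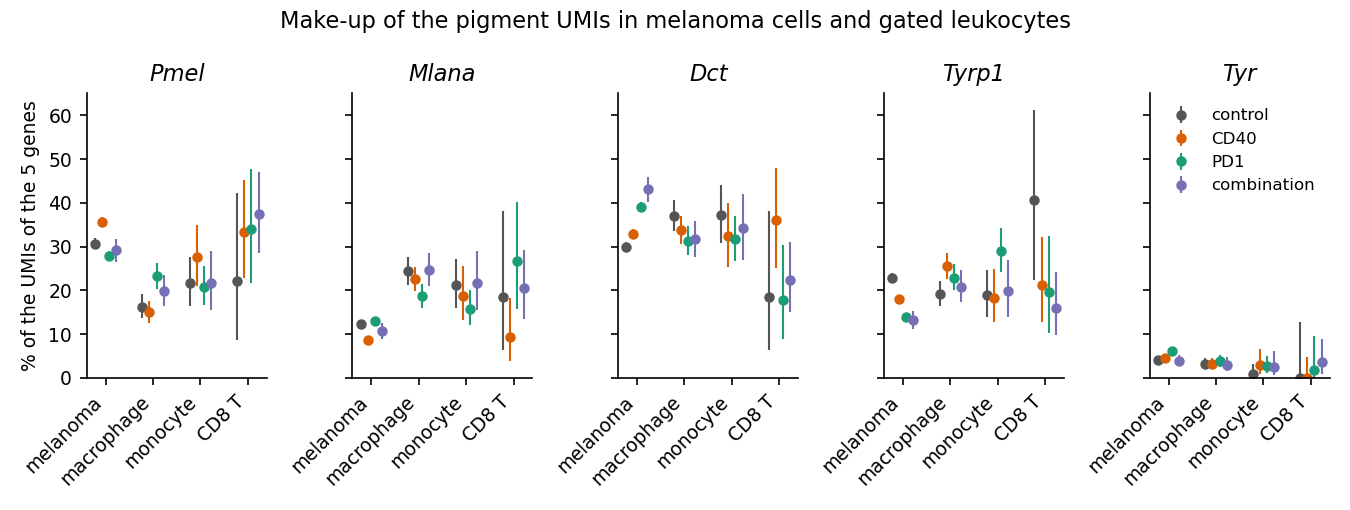
Share of each transcript among the UMIs of the 5 pigment genes, in percent, in melanoma cells and 3 leukocyte gates; points are libraries (colours) and bars are exact 95% binomial intervals. The Mlana share is near 11% in melanoma cells and 18.7% to 24.7% in macrophages, and the Pmel share moves the other way.

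Between treatments, among gates with at least 100 cells in every library, the clearest difference was in monocytes. They carried less pigment RNA in the libraries with CD40 antibody. This was not particular to monocytes, since in CPM NK cells and macrophages were lower there too. Per cell the NK ratio of the combination against PD1 was 1.25, and the macrophage ratios were also above 1. So were regulatory T cells, a smaller gate, from 37, 4, 30 and 6 UMIs in control, CD40, PD1 and combination. The monocyte level was 0.527 times the control in the CD40 library (interval 0.428 to 0.647) and 0.479 times PD1 in the combination library (0.394 to 0.580). Per cell the ratios were 0.686 and 0.665. PD1 against control was 0.949 (0.798 to 1.13), an interval that contains 1, and the combination against CD40 was 0.863 (0.691 to 1.08). Each group is 1 library, so this compares libraries and not conditions.

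The monocyte difference was present at matched C1q and in the middle depth bins, and not in every bin. Among monocytes of 10000 to under 20000 UMIs the CPM was 8.57 in control, 5.22 in CD40, 9.87 in PD1 and 2.69 in the combination, the bin with the widest gap between the last pair. From 20000 to under 40000 UMIs it was 14.5, 4.49, 10.6 and 5.64. From 5000 to under 10000 UMIs it was 10.0, 5.08, 6.44 and 5.57, and there the PD1 and combination intervals (4.88 to 8.35 and 3.24 to 8.91, from 57 and 17 UMIs) overlapped. The shallowest and the deepest bin held 0 to 13 UMIs per library, and in both CD40 was above control and the combination above PD1. Among phagocytes without a C1q UMI it was 9.01, 5.38, 9.37 and 4.61. By gene, Dct was 0.457 times control in CD40 (81 and 55 UMIs in control and CD40) and 0.515 times PD1 in the combination (107 and 55), Tyrp1 was 0.508 and 0.327 times, Mlana 0.468 and 0.662 times, and Pmel 0.672 and 0.501 times. With Tyr at 2 to 9 UMIs per library no reading is given.

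A count of members at least 2-fold lower gave 2 of the 4 with at least 10 UMIs in CD40 against control (Mlana and Dct), where 3.94% of 14139 genes were as much lower, and 2 of 5 in the combination against PD1 (Tyrp1 and Tyr), where 4.58% of 14461 were. The interval of Tyr, from 4 and 9 UMIs, contains 1, and of the other 4 members only Tyrp1 was as much lower. None was 2-fold higher, where 4.77% and 3.98% of genes were. The median log2 ratio of the members was -1.04 in the first comparison, beside 0.02 over all genes, and -1.0 in the second, beside -0.0001. Kept cells of the CD40 library held the most pigment UMIs (12018) and those of the combination the least (2584). Most of the CD40 total lay in melanoma cells (7188) and in the pigment-rich cells with Ptprc (3258). Any link of these totals to the monocyte level was not tested.

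In macrophages the direction depended on the scale. In CPM the level was 0.798 times control in CD40 (0.722 to 0.881) and 0.857 times PD1 in the combination (0.766 to 0.958), whereas per cell it was 1.16 and 1.25 times, since these macrophages held more UMIs. None of the 5 members was 2-fold lower or higher in either comparison, where 4.38% and 4.63% of genes were in CD40 against control and 3.74% and 3.95% in the combination against PD1. In CD8 T cells the ratios were 0.967 (0.615 to 1.56) and 0.774 (0.556 to 1.09), and both intervals contain 1. In NK cells they were 0.407 (0.157 to 0.993) and 0.694 (0.328 to 1.46), from 9 to 17 UMIs. The second has no steady size: its log2 ratio of -0.53 was -2.25 without Pmel, which gave 12 of the UMIs in the combination and 3 in PD1, and 0.32 when counted per cell.

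Neutrophils held more pigment CPM where monocytes held less, at 2.07 times control in CD40 (1.03 to 4.73, from 66 and 9 UMIs) and 2.01 times PD1 in the combination (0.837 to 6.28, from 128 and 5 UMIs). Without cells of at least 5 pigment UMIs the log2 ratio of CD40 against control was -0.51 in place of 1.05, so a few cells carried it. With all deposited barcodes kept, PD1 neutrophils were at 29.7 CPM in place of 15.3, and the log2 ratio of the combination against PD1 was 0.28 in place of 1.00; its interval contains 1 as it stands.

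The wider melanocyte programme separated into genes far higher in the melanoma cells and genes shared with leukocytes. Of 32 other melanocyte genes, 18 were at least 10 times higher in CPM in melanoma cells than in gated leukocytes, where 5.91% of 19593 genes were. The list's median ratio was 37.1, beside 0.783 over all genes, with leukocyte counts under 3 set to 3. Among the regulators, these were Sox10 (304 against 0.310 CPM), a lineage transcription factor, Pax3 (356 against 0.194), Tfap2a (78.1 against 0.278) and Mc1r (116 against 0.145), the melanocortin receptor. Among melanosome transporters and membrane proteins they were Slc45a2 (892 against 0.427 CPM), Slc24a5, Oca2, Trpm1 and Gpr143. Rab38 and Mlph, which move melanosomes and their cargo, and Tspan10, S100b, Bace2, Mcam, Ptgds, Syngr1 and Gpnmb completed the 18.

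Gpnmb, a lysosomal and melanosomal glycoprotein, was among the 18 and still at 380 CPM in macrophages, against 4085 in melanoma cells. Other genes were less than 10 times higher in melanoma cells than in leukocytes. Mitf itself was at 459 CPM in melanoma cells and 146 in macrophages. Rab32, which shapes lysosome-related organelles, was higher in leukocytes (75.4 against 23.8 CPM). So was the stem cell factor receptor Kit (9.06 against 3.72), from 5 UMIs in 2 melanoma cells. The vesicle coat gene Ap3b1 was at 102 CPM in leukocytes and 86.3 in melanoma cells. The interval of its melanoma to leukocyte ratio, 0.696 to 1.01, contains 1. Ednrb, Cdh1 and Cdh3 had 0 UMIs in the melanoma cells. Of the fibroblast markers, Col1a1, Col1a2, Col3a1 and Dcn were at 0 in the melanoma cells of all 4 libraries and Pdgfrb had 1 UMI, in PD1; all 5 keratinocyte markers were at 0. The 5 endothelial markers summed to 2, 14, 15 and 1 UMIs (5.96, 36.9, 28.4 and 9.90 CPM), with the defining Cdh5, Kdr and Cldn5 at 0 in all 4. The 4 haemoglobin genes were at 0, and the erythroid gene Alas2 had 2, 2, 1 and 0 UMIs.

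**Figure D5:**
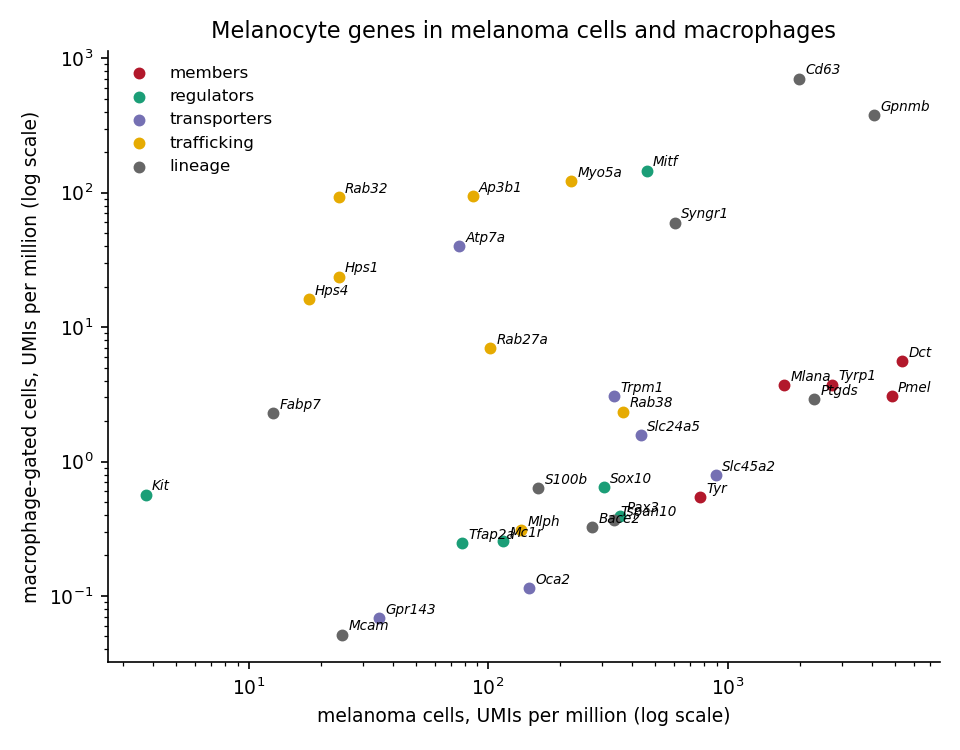
Level in melanoma cells (x) against macrophage-gated cells (y), in CPM on log axes, 4 libraries pooled, for the 5 pigment genes and the other melanocyte genes with UMIs in both; colours give the gene group. The 5 pigment genes lie at 766 CPM or more on x and under 6 on y, while Cd63, Gpnmb and Mitf are high on both.

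The genes whose levels were most like the summed pigment level were named by Pearson correlation of log2(CPM + 1). Over 41 units (4 of melanoma cells and 37 of a leukocyte gate in a library), the 10 highest of 15011 genes were Slc45a2 (0.967), Sparcl1, Pla2g2e, Fermt2, Tspan10, Sparc, Tm4sf1, Syt4, Insc and Ptgds (0.963). Over the 37 leukocyte units alone, which share libraries and differ in depth, the 10 highest of 14922 genes were 9930022D16Rik (0.789), Naa80, Igf1r, Gys1, Osbpl8, Samd8, Wsb2, Slc3a2, Fam114a1 and Rybp (0.722). The 2 lists shared no gene. In those leukocyte units the members followed their own sum at 0.907 for Dct, 0.880 for Mlana, 0.799 for Tyrp1, 0.751 for Pmel and 0.279 for Tyr, so tyrosinase, the sparsest, tracked it least.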

How the data were processed

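The authors deposited raw UMI counts per gene and barcode, made with Cell Ranger 7.0.0 on GRCm38 (per the submitters' processing notes and, for both, per the file headers). The annotation release, cell calling and intron counting were not given in the sources used here. The lowest barcode held 500 UMIs. A cell was kept with 300 or more genes and no more than 10% mitochondrial UMIs, and 756 with a Scrublet score of at least 0.25 (scanpy 1.11.5) were removed, leaving 7736 (control), 7757 (CD40), 9681 (PD1) and 9481 (combination). Gates required at least 5 UMIs of a class's markers and at most 2 of most other lists (5 for neutrophil genes); other cells stayed ungated. Members, lists and gates were chosen with earlier results of these data known, and the phagocyte gate was widened once after a first look that included pigment values. Named genes are the 5 members, melanocyte genes at least 10 times higher in melanoma cells or no higher there than in leukocytes, and the 10 most alike per ranking; Mitf and others were named after their values were seen. In the likeness rankings, leukocyte units needed 50 cells and melanoma units were kept with fewer. UMIs were summed per gate and library and scaled to CPM, with exact Poisson intervals, shares with Clopper-Pearson intervals, and ratios with conditional binomial intervals; counts under 3 were set to 3 in ratios. Shares of cells were thinned to 2000 UMIs, with 1000 as an alternative, each by 1 random draw. Treatments have 1 library each and no test. The sign-flip tests between cell types were added after the data were seen. The 2-fold rule and the ratio intervals were tested on simulated counts of 1 comparison, macrophages in CD40 against control. Other steps were not tested in this way. The steps ran in Python 3.11.15 with scipy 1.17.1, pandas 2.3.3, numpy 2.4.6 and matplotlib 3.10.9.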

Additional observations from a re-analysis of the deposited data

Results flagged for a closer look

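Cells outside every comparison held pigment UMIs. The 6204 cells of no gate carried 1360 of them, at 13.3, 16.6, 14.9 and 13.1 CPM in control, CD40, PD1 and combination, above the monocyte level in all 4 and above the macrophage level in CD40. Their mixture was led by Dct (476 UMIs), followed by Mlana (292), Tyrp1 (275), Pmel (274) and Tyr (43). The filters had also removed 3 barcodes with 20 or more pigment UMIs, 2 in the CD40 library and 1 in PD1.

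With CD40 antibody the pigment ratios of neutrophils and monocytes had opposite signs. The neutrophil log2 ratio of the summed pigment CPM was 1.05 in CD40 against control and 1.0 in the combination against PD1, while the monocyte values were -0.92 and -1.06. The difference between the classes was not tested, since each group is 1 library, and the neutrophil control and PD1 values rest on 9 and 5 UMIs. The neutrophil interval of the combination against PD1 contains 1 (0.837 to 6.28 as a ratio), and without cells of at least 5 pigment UMIs the neutrophil value of CD40 against control was -0.51, the sign of monocytes.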

How the results depend on the processing

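No paired analysis was possible because each treatment group is 1 library; cell types, which share a library, were compared within it. The monocyte ratios kept their sign in all 12 alternatives for CD40 against control (log2 -1.04 to -0.54, reported -0.92) and for the combination against PD1 (-1.17 to -0.59, reported -1.06). Counting UMIs per cell in place of CPM gave monocyte log2 ratios of -0.54, -0.59 and -0.71 for CD40 against control, combination against PD1 and combination against control. It turned the macrophage ratios of those comparisons to 0.22, 0.32 and 0.12, and moved PD1 against control to -0.20 and combination against CD40 to -0.10. Leaving out cells with 5 or more pigment UMIs gave macrophage levels of 16.3, 12.5, 15.4 and 13.1 CPM in control, CD40, PD1 and combination, a monocyte level of 7.82 in PD1, and neutrophil levels of 15.4 in CD40 and 25.1 in the combination; it turned the neutrophil log2 ratios of CD40 against control to -0.51 and of combination against CD40 to 0.71. At most 5% mitochondrial UMIs gave 22.9 CPM in combination neutrophils. Leaving Pmel out of the sum gave NK log2 ratios of -2.25 for the combination against PD1 and -2.42 against control. Thinning to 1000 in place of 2000 UMIs, a separate random draw, moved 10 of 20 shares of cells outside their intervals. Drawing fewer UMIs per cell lowers such a share by itself, so this move cannot tell whether the shares are stable. Keeping all barcodes, keeping predicted doublets, the stricter gate and equal weight per cell moved no value outside its counting interval, nor did the other thresholds of the melanoma rule for the melanoma share. The causes were not tested. Depth limits Tyr, with 95 UMIs in 6127 macrophages, and the gates with under 20 pigment UMIs.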
